A study of Mus musculus with 12 samples.

Results

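The comparison described here sets E0771 cells given a short exposure to recombinant IFNβ against control E0771 cells from the same experiment. E0771 is a mouse mammary tumor cell line grown in culture, and IFNβ is a type I interferon (IFN), a secreted protein that alerts cells to infection. The 6 RNA samples were 3 independent cultures given IFNβ and 3 independent control cultures, of 12 samples in the series. The other 6 samples were cells given 4HC, an activated form of the chemotherapy drug cyclophosphamide, with or without an antibody that blocks the type I IFN receptor. Treated cultures received 27.8 U/mL IFNβ over 4 hours before washing. Their sample labels place collection 2 hours later, timed to match controls taken at 72 hours, whereas the protocol text of those samples places it 68 hours later. The header of the deposited table names the IFNβ group as 6 hours, the sum of the exposure and the shorter wait. Control cells are labelled as vehicle controls and are called untreated in the table. Whether they were washed and given fresh medium when the IFNβ cells were is not stated, so an effect of the wash and an effect of IFNβ cannot be told apart. The methods of the study seed cultures for IFNβ with more cells per well than E0771 cultures for drug treatment. How densely the control cells were seeded is not stated, so an effect of cell density cannot be told apart either.

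The deposited table lists the mean FPKM of each group (fragments per kilobase, normalised to the size of the library, so levels are corrected for transcript length) for 24197 genes. Values of single libraries and read counts were not part of the files used here. No spread between cultures, interval or p-value can therefore be given for any difference below, and each value is a mean over 3 libraries. The genes described are the 10677 with at least 0.5 FPKM in either group. The effect of a gene is log2 of (IFNβ + 0.1 FPKM) over (control + 0.1 FPKM), and genes with an effect of 1 or more, or -1 or less, are counted as at least 2-fold higher or lower.

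Type I IFNs bind a receptor made of Ifnar1 and Ifnar2 and activate the kinases Jak1 and Tyk2. These phosphorylate transcription factors that join Irf9 and bind a DNA element called the IFN-stimulated response element (ISRE) in the promoters of IFN-stimulated genes (ISGs). The products of ISGs block viral replication, sense foreign RNA and DNA, present antigen to T cells and attract leukocytes. A second element in such promoters is the gamma-activated site (GAS).

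Known ISGs stood furthest above control levels in cells given IFNβ. In all, 234 genes were at least 2-fold higher with IFNβ, which is 2.19% of the genes counted, and 34 were at least 2-fold lower, which is 0.318%. Of the 234, 99 were under 0.5 FPKM in control cells, and 24 of the 34 were under 0.5 FPKM with IFNβ. These genes met the minimum only in the group where they were higher. The highest effects belonged to Ifi47, a GTPase of the immunity-related family (14.7 FPKM with IFNβ, 0.0574 FPKM in control cells), Usp18, the protease that removes Isg15 from proteins (115 FPKM with IFNβ, 1.23 FPKM in control cells), and Ifit1, which binds viral RNA (91.7 FPKM with IFNβ, 1.18 FPKM in control cells). Their effects were 6.56, 6.44 and 6.17. The only gene at least 2-fold lower that does not carry the name of a small RNA was Slc26a11, an anion transporter gene (0.832 FPKM with IFNβ, 2.05 FPKM in control cells, effect -1.20). In RNA from whole cultures, more cells expressing a gene and more RNA per cell cannot be told apart.

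The ratio of higher to lower genes was larger at higher thresholds. At 1.5-fold, 372 genes were higher with IFNβ and 132 were lower. At 4-fold the counts were 130 higher (1.22%) and 11 lower (0.103%), and at 8-fold they were 84 higher (0.787%) and 0 lower. At least 16-fold higher levels were found for 51 genes, and at least 32-fold higher levels for 22. Most other genes were close to equal in both groups. The median effect over all genes was -0.03 with an SD across genes of 0.51, and 95.3% of genes were within 1.5-fold.

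**Figure D1:**
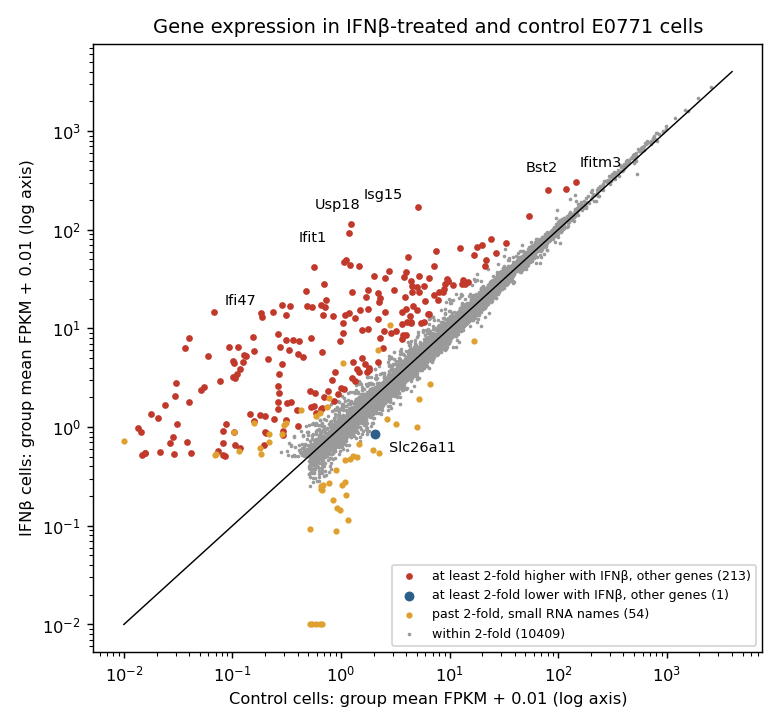
Group mean FPKM of 10677 genes in IFNβ cells (vertical axis) and control cells (horizontal axis), each plus 0.01 and on log axes, with 1 point per gene and equal levels on the line. The 213 red genes lie above the line, from Ifi47 near the left to Ifitm3 at the right, and Slc26a11 is the 1 blue gene under it, with 54 small RNA names in orange on both sides.

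Genes with the highest effects were mostly low in control cells. The 84 genes at least 8-fold higher had a median of 10.1 FPKM with IFNβ and of 0.326 FPKM in control cells, and 58 of them were under 1 FPKM in control cells. All 234 genes at least 2-fold higher had a median of 6.52 FPKM with IFNβ and of 0.708 FPKM in control cells. Their levels summed to 4242 FPKM with IFNβ and 1013 FPKM in control cells, or 1.98% and 0.497% of all FPKM in each group. No gene of at least 1 FPKM in one group was listed at 0 in the other once predicted genes and small RNA names were passed over.

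The 20 genes of highest effect, with predicted names passed over, spanned 5.23 to 172 FPKM with IFNβ. After Ifi47, Usp18 and Ifit1 came Igtp (41.5 FPKM with IFNβ, 0.558 FPKM in control cells) and Iigp1 (8.06 FPKM with IFNβ, 0.0302 FPKM in control cells), both immunity-related GTPases that act on the vacuoles of intracellular parasites. The last of the 20 was Isg15, a ubiquitin-like protein that is attached to other proteins, at 172 FPKM with IFNβ against 5.11 FPKM in control cells (effect 5.04). Between them stood 3 guanylate-binding proteins (Gbp7, Gbp2 and Gbp3), Ifit3, Ifi44, Oasl2, Rsad2, Trim30a, Phf11d, Parp14, Phf11b, Mx1, Zbp1 and Irf7. The predicted gene Gm12250, which was passed over, had 6.29 FPKM with IFNβ and 0.0266 FPKM in control cells (effect 5.66), between Gbp7 and Ifit3. Where control levels are this low the size of an effect depends on the 0.1 FPKM that is added, and Ifi47 had an effect of 7.77 with 0.01 FPKM added.

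**Figure D2:**
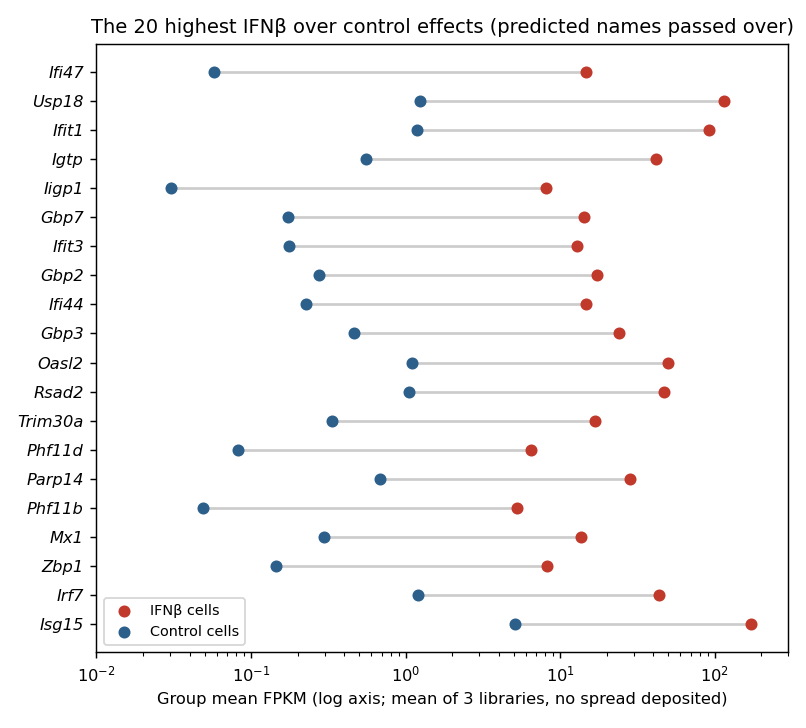
Group mean FPKM (log axis) of the 20 genes with the highest effects, predicted names passed over, ordered from Ifi47 with an effect of 6.56 at the top to Isg15 with 5.04 at the bottom, in IFNβ cells (red) and control cells (blue). Each point is the mean of 3 libraries with no spread deposited, and the grey line joins the groups. Control levels run from 0.0302 FPKM for Iigp1 to 5.11 FPKM for Isg15.

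The ISRE can be looked for in promoter sequences, and 6 are printed here as clear cases with and without its core, chosen after their values were seen. The windows run from 250 bases before to 50 bases after a transcript start in RefSeq (build GRCm38.p6). The core of the ISRE was searched as GAAANNGAAA on both strands, and matches, overlapping ones joined, are in capitals. This motif was found in 1131 of 32851 such promoters, or 3.44%. The genes with a core match are Ifit1 (chr19:34640639-34640938, plus strand, 91.7 FPKM with IFNβ and 1.18 FPKM in control cells), Isg15 (chr4:156200769-156201068, minus strand, 172 FPKM with IFNβ against 5.11 FPKM in control cells), Rsad2 (chr12:26456403-26456702, minus strand, 47.1 FPKM with IFNβ and 1.04 FPKM in control cells) and Gbp7 (chr3:142530086-142530385, plus strand, 14.4 FPKM with IFNβ against 0.174 FPKM in control cells). Ifi47 (chr11:49076337-49076636, plus strand, 14.7 FPKM with IFNβ and 0.0574 FPKM in control cells) has no match in its window and had the highest effect. Irf3 (chr7:44997398-44997697, plus strand) has none either, at 11.3 FPKM with IFNβ against 11.7 FPKM in control cells.
Ifit1: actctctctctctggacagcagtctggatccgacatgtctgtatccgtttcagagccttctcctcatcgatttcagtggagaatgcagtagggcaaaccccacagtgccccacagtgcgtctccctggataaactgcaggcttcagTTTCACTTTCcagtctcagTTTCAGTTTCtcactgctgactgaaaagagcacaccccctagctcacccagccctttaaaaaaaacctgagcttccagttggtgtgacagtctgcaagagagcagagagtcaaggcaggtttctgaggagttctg
Isg15: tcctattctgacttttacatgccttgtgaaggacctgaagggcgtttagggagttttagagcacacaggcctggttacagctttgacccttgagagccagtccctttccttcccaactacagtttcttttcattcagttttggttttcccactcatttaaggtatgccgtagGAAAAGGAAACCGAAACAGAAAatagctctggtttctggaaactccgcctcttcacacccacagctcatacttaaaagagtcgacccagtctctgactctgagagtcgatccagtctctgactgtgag
Rsad2: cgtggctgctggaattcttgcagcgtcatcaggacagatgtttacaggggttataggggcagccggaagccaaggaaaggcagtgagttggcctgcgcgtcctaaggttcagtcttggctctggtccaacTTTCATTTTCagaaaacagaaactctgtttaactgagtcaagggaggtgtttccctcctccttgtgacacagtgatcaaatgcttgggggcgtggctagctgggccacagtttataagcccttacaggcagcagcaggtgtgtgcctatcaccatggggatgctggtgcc
Gbp7: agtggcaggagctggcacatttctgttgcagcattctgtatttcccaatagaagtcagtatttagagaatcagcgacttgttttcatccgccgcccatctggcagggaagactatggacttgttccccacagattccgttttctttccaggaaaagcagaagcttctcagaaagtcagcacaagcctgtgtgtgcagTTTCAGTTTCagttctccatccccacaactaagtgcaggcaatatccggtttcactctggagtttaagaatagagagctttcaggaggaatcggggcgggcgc
Ifi47: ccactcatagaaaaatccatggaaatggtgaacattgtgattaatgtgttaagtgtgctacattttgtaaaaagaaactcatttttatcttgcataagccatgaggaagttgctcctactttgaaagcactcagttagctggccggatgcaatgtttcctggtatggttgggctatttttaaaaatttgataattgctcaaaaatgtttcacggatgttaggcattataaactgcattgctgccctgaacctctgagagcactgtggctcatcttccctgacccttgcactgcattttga
Irf3: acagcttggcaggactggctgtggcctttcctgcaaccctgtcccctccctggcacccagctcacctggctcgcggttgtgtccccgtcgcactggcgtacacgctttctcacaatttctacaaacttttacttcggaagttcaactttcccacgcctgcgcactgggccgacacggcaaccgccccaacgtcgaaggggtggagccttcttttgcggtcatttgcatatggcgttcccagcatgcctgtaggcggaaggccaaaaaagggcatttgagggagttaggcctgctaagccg

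The 4 promoters with a core held it close to the start. In Ifit1 the 2 matches ran from base -104 to -95 and from -85 to -76 on the reverse strand, counted from the start with no base 0. In Isg15 there were 3 overlapping matches on the forward strand, the first of which ran from -78 to -69. The match of Rsad2 ran from -120 to -111 and that of Gbp7 from -53 to -44, both on the reverse strand. Of the 234 genes at least 2-fold higher, 168 matched a promoter in the RefSeq table, or 71.8%. Because this is under 80%, a comparison of motif shares between those genes and all genes would be void and was not made. A match is a run of letters and no evidence of binding. The GAS motif TTCNNNGAA, which reads the same on both strands, was found in 8.30% of all promoters, and the window of Gbp7 held 2 matches to it.

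Many genes with high effects lay next to each other. Of the 130 genes at least 4-fold higher, 41 (31.5%) were followed on the chromosome by another such gene. Over all genes counted this held for 75 of 10676 (0.703%), the 41 among them. There were 9 runs of 3 or more genes at least 4-fold higher in a row, with 36 genes in all. One run of 4 (Slfn5, Slfn9, Mir7679 and Slfn8) counts Mir7679, a small RNA name that lies within Slfn9. The longest was a run of 7 on chromosome 1 (chr1:175560989-175872803, build mm9) that held the p200 genes Pyhin1, Ifi204, Mndal, Mnda and Ifi203, with effects from 3.28 to 4.27. A run of 6 on chromosome 19 (chr19:34625183-34724499, mm9) held Ifit2, Ifit3 and Ifit1 and 3 genes with predicted names, among them Gm14446, which is in the Ifit list. A run of 3 on chromosome 11 (chr11:57997344-58036285, mm9) held Gm12250, Igtp and Irgm2, and one on chromosome 17 (chr17:34319043-34338399, mm9) held Psmb9, Tap1 and Psmb8. Members of these families are close copies of each other. How reads that fit several copies were counted is not stated, so the levels of single Gbp, Oas1, p200, Phf11, Trim30, Tgtp and H2 genes are uncertain.

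Many effectors that block viral replication were higher. A list of 49 core type I ISGs had 49 of 49 genes at least 2-fold higher, with a median effect of 4.12, against -0.03 over all genes. The levels of these genes summed to 1953 FPKM with IFNβ and 324 FPKM in control cells. In control cells 13 of the 49 were under 0.5 FPKM, so they met the minimum with IFNβ only. This list was drawn up from known ISGs with earlier results of these data in view, so its count is a description. Beside this and each list count below stands the share of all genes counted that were at least 2-fold higher, 2.19%.

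The 2′-5′ oligoadenylate synthetases make a short messenger of the antiviral response on sensing double-stranded RNA. Of 12 listed, 8 reached 0.5 FPKM, 4 of them with IFNβ only, and these 8 were at least 2-fold higher, with a median effect of 4.39. Oas1f and Oas1h were listed at 0 in both groups. Oasl2 stood at 49.7 FPKM with IFNβ against 1.10 FPKM in control cells, and Oas1a at 17.2 FPKM with IFNβ and 0.648 FPKM in control cells. Oas1c had the lowest effect of the 8, 2.34, at 1.15 FPKM with IFNβ against 0.148 FPKM in control cells. Of 6 Ifit genes listed, 4 were found under the names searched, Gm14446 among them, and 2 of the 4 reached 0.5 FPKM with IFNβ only. All 4 were higher, from Ifit1 with an effect of 6.17 to Ifit2 with 2.45 (12.4 FPKM with IFNβ, 2.19 FPKM in control cells). Mx1 and Mx2, GTPases that trap viral nucleocapsids, stood at 13.6 and 6.53 FPKM with IFNβ against 0.299 and 0.103 FPKM in control cells. Rsad2, which makes an altered nucleotide that stops viral polymerases, and Cmpk2, a nucleotide kinase, had 47.1 and 42.5 FPKM with IFNβ against 1.04 and 1.47 FPKM in control cells.

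Members of both families of large IFN-inducible GTPases were higher. The 7 of 8 immunity-related GTPases that reached 0.5 FPKM, 5 of them with IFNβ only, had effects between 2.54 and 6.56, and Irgm1, which regulates the others, was the most abundant at 53.3 FPKM with IFNβ and 4.10 FPKM in control cells. Of 12 genes listed as guanylate-binding proteins and Gvin, 7 reached 0.5 FPKM, with effects between 2.89 and 5.72, and all 7 did so with IFNβ only and so had to be higher. The other 5 were under 0.5 FPKM in both groups. Gbp3 was the most abundant of these, at 23.9 FPKM with IFNβ against 0.464 FPKM in control cells, and Gbp4 the least, at 0.778 FPKM with IFNβ and 0.0181 FPKM in control cells.

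All 6 genes listed for ISG15 conjugation were at least 2-fold higher with IFNβ, and 1 of them, Uba7, reached 0.5 FPKM with IFNβ only. Besides Isg15 and Usp18, the activating enzyme Uba7 had 5.99 FPKM with IFNβ against 0.321 FPKM in control cells. The conjugating enzyme Ube2l6 had 24.8 FPKM with IFNβ and 1.76 FPKM in control cells, and the ligase Herc6 had 18.4 FPKM with IFNβ against 2.24 FPKM in control cells. Trim25, the ligase with the lowest effect (1.31), had 19.5 FPKM with IFNβ and 7.79 FPKM in control cells. The 6 genes summed to 355.5 FPKM with IFNβ against 18.5 FPKM in control cells.

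Many sensors of foreign nucleic acid were higher, and others, like the adaptors and kinases downstream, were within 2-fold. Of 10 RNA sensing genes, 5 were at least 2-fold higher, against 2.19% of all genes counted. Of the 10, 3 reached 0.5 FPKM with IFNβ only. Among the 5 higher genes were the helicases Ddx58, which encodes RIG-I (33.3 FPKM with IFNβ, 3.82 FPKM in control cells), Dhx58 (23.6 FPKM with IFNβ, 1.27 FPKM in control cells) and Ifih1, which encodes MDA5 (7.62 FPKM with IFNβ, 0.349 FPKM in control cells). The receptor of double-stranded RNA Tlr3 had 2.21 FPKM with IFNβ and 0.256 FPKM in control cells. The adaptor Mavs had 6.73 FPKM with IFNβ against 8.15 FPKM in control cells, the kinase Tbk1 12.6 FPKM with IFNβ and 10.5 FPKM in control cells, and Ikbke 1.20 FPKM with IFNβ against 1.24 FPKM in control cells, all within 2-fold. Of 12 genes for DNA sensing and the p200 family that reached 0.5 FPKM, 9 were at least 2-fold higher, against 2.19% of all genes counted. Of the 12, 5 reached 0.5 FPKM with IFNβ only, and so are in the count only because they were higher. Zbp1, a sensor of Z-form nucleic acid, had 8.16 FPKM with IFNβ and 0.145 FPKM in control cells, and Ifi204 had 13.4 FPKM with IFNβ against 0.839 FPKM in control cells. The 3 within 2-fold were the DNA sensors Mb21d1, which encodes cGAS, at 2.24 FPKM with IFNβ and 1.44 FPKM in control cells (effect 0.61), and Aim2 (effect 0.25), and the adaptor Tmem173, which encodes STING, at 14.6 FPKM with IFNβ against 12.2 FPKM in control cells (effect 0.25).

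Several transcription factors of the pathway were higher and its receptors and kinases were close to equal. Stat2 had 21.0 FPKM with IFNβ against 1.68 FPKM in control cells. Irf9, its partner at the ISRE, had 14.7 FPKM with IFNβ and 3.68 FPKM in control cells. Irf7, which drives the IFNα genes, had 43.8 FPKM with IFNβ against 1.21 FPKM in control cells, and Irf1 had 13.5 FPKM with IFNβ and 4.32 FPKM in control cells. Irf3, the factor that acts before any IFN is made, had an effect of -0.05. Of 12 genes reported from the list of receptors, JAKs and STATs, 1 passed 2-fold, which was Stat2, and the median effect of the list was -0.05. Ifnar1 had 3.07 FPKM with IFNβ against 3.49 FPKM in control cells, Ifnar2 3.43 FPKM with IFNβ and 2.95 FPKM in control cells, Jak1 20.4 FPKM with IFNβ against 21.2 FPKM in control cells, and Tyk2 1.65 FPKM with IFNβ and 1.94 FPKM in control cells.

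Genes that end the signal were mixed. Usp18, which also blocks Ifnar2, had the second highest effect of all. Socs1, an inhibitor of JAK kinases, had 7.74 FPKM with IFNβ against 3.67 FPKM in control cells (effect 1.05). Its relative Socs3 had 6.40 FPKM with IFNβ and 6.36 FPKM in control cells (effect 0.01). In all, 4 of 10 members of the negative feedback list were at least 2-fold higher, the others being Trim30a and Trim21. The share over all genes counted was 2.19%. Trim30a reached 0.5 FPKM with IFNβ only, and so is in the count only because it was higher. None of the 12 IFN genes listed reached 0.5 FPKM in either group, and Ifnb1 itself had 0.0120 FPKM with IFNβ against 0.00660 FPKM in control cells.

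**Figure D3:**
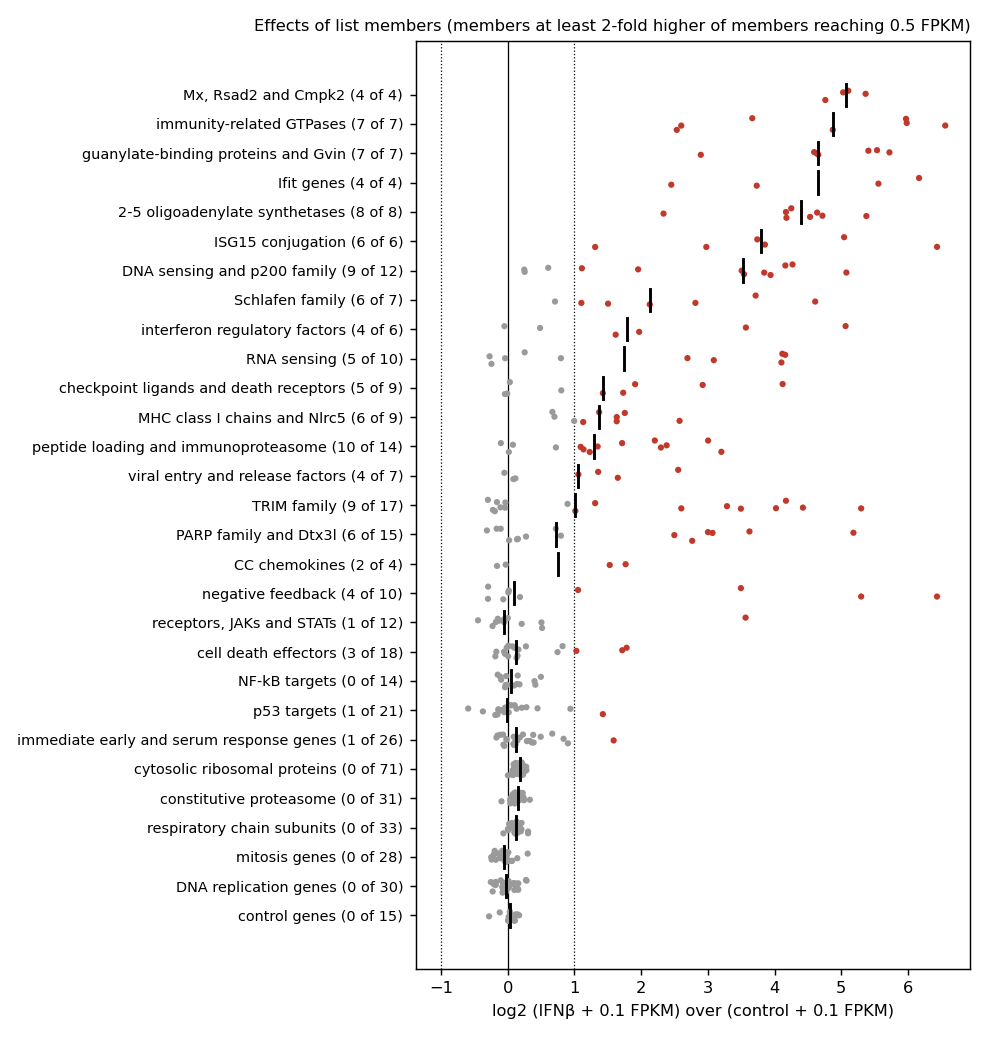
Effects (log2, horizontal axis) of the members of 29 gene lists that reached 0.5 FPKM, with 1 point per gene, red where at least 2-fold higher with IFNβ, and a black bar at the median of each list. Dotted lines mark 2-fold in each direction, and the numbers beside a name are the genes at least 2-fold higher of those that reached 0.5 FPKM. The first 6 lists sit wholly right of the dotted line at 1, from a median of 5.07 for Mx, Rsad2 and Cmpk2 to 3.80 for ISG15 conjugation, while mitosis and DNA replication genes cluster at 0. Some members of these 6 lists reached 0.5 FPKM with IFNβ only.

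Other families of restriction factors were higher in part. In the Schlafen family, IFN-responsive genes tied to growth control and virus restriction, 6 of 7 genes were at least 2-fold higher. The share over all genes counted was 2.19%. Slfn2 had 5.93 FPKM with IFNβ and 0.147 FPKM in control cells, and Slfn9 had 23.2 FPKM with IFNβ against 5.23 FPKM in control cells. Slfn2 reached 0.5 FPKM with IFNβ only. In a list of the PARP family, which attaches ADP-ribose to proteins, and the ubiquitin ligase Dtx3l, 6 of 15 genes were at least 2-fold higher. Dtx3l was among them, and the share over all genes counted was 2.19%. Parp14 had 28.3 FPKM with IFNβ and 0.681 FPKM in control cells, and Parp12 had 60.3 FPKM with IFNβ against 7.44 FPKM in control cells, while Parp1, which responds to DNA breaks, had 28.1 FPKM with IFNβ and 31.5 FPKM in control cells. In the TRIM family of ubiquitin ligases, 9 of 17 genes passed 2-fold, against 2.19% of all genes counted. Of the 17, 6 reached 0.5 FPKM with IFNβ only, and so are in the count only because they were higher. The effects of the 9 ran from Trim30a at 16.9 FPKM with IFNβ against 0.332 FPKM in control cells to Trim26 at 11.7 FPKM with IFNβ and 5.76 FPKM in control cells. Eif2ak2, the kinase PKR that stops translation on sensing double-stranded RNA, had 34.0 FPKM with IFNβ against 5.26 FPKM in control cells. The RNA editing enzyme Adar had 18.8 FPKM with IFNβ and 5.99 FPKM in control cells.

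Of 7 genes for virus entry and release that reached 0.5 FPKM, of 10 listed, 4 were at least 2-fold higher. The share over all genes counted was 2.19%. Of the 4, 3 were already abundant in control cells. Ifitm3, which blocks entry at endosomes, had 307 FPKM with IFNβ against 147 FPKM in control cells (effect 1.06). Bst2, or tetherin, which holds virus particles at the cell surface, had 251 FPKM with IFNβ and 79.9 FPKM in control cells (effect 1.65), and Ly6e had 138 FPKM with IFNβ against 53.8 FPKM in control cells (effect 1.36). Samd9l, a restriction factor, had the highest effect of the list, 2.56, at 42.5 FPKM with IFNβ and 7.15 FPKM in control cells. Ifitm2 was close to equal, at 96.4 FPKM with IFNβ against 90.9 FPKM in control cells, as were the low Ifitm5 and Ifitm6 (effects -0.05 and 0.12).

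Genes for antigen presentation on MHC class I were higher, with a median effect of 1.37, against 4.12 for the core ISGs. In the list of class I chains and Nlrc5, 6 of 9 genes that reached 0.5 FPKM were at least 2-fold higher, of 22 found. The share over all genes counted was 2.19%. Of the 9, 1 reached 0.5 FPKM with IFNβ only, and so is in the count only because it was higher. It was H2-T10 (0.874 FPKM with IFNβ, 0.188 FPKM in control cells). The 6 include H2-t9 and H2-T22, whose locations start at the same base and overlap nearly in full, so that they may stand for 1 gene, and H2-L likewise lies inside H2-D1. The highest effect was that of Nlrc5, the transactivator of the class I genes (9.71 FPKM with IFNβ, 1.55 FPKM in control cells, effect 2.58). The light chain B2m had 257 FPKM with IFNβ against 117 FPKM in control cells (effect 1.13). With 0.1 FPKM added to both groups, the classical chains were under 2-fold. H2-K1 was so only just, at 19.8 FPKM with IFNβ and 9.89 FPKM in control cells (1.99-fold), and only through that addition. H2-D1 had 159.9 FPKM with IFNβ against 98.4 FPKM in control cells (1.63-fold), and the H2-L entry inside it had 203 FPKM with IFNβ and 128 FPKM in control cells (1.59-fold).

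Of 14 genes for peptide supply to class I, 10 were at least 2-fold higher, against 2.19% of all genes counted. Psme2b (0.521 FPKM with IFNβ, 0.0191 FPKM in control cells) reached 0.5 FPKM with IFNβ only. It is thus in the count only because it was higher. Tap1, a subunit of the peptide transporter, had 37.3 FPKM with IFNβ against 3.96 FPKM in control cells, and its partner Tap2 had 31.2 FPKM with IFNβ and 13.3 FPKM in control cells. The immunoproteasome subunits Psmb8, Psmb9 and Psmb10 had 27.0, 9.03 and 32.4 FPKM with IFNβ against 5.77, 1.04 and 6.52 FPKM in control cells. None of the 31 constitutive proteasome subunits passed 2-fold, with effects from -0.09 to 0.33. The general ER chaperones Calr, Canx and Pdia3 had effects of -0.10, 0.02 and 0.08. No MHC class II gene passed 2-fold among the 2 that reached 0.5 FPKM, H2-DMa at 3.20 FPKM with IFNβ against 3.03 FPKM in control cells and H2-DMb1 at 3.05 FPKM with IFNβ and 3.16 FPKM in control cells.

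Few chemokines were expressed, and 3 of the 6 that reached 0.5 FPKM were at least 2-fold higher, against 2.19% of all genes counted. Cxcl10, which attracts activated T cells through Cxcr3, had 11.2 FPKM with IFNβ against 1.04 FPKM in control cells (effect 3.31). Cxcl11, which binds the same receptor, was near 0 in both groups, at 0.00576 FPKM with IFNβ and 0.00634 FPKM in control cells. The monocyte attractants Ccl2 and Ccl7 had 23.5 and 7.95 FPKM with IFNβ against 8.06 and 2.26 FPKM in control cells. Ccl5 had 2.71 FPKM with IFNβ against 3.04 FPKM in control cells.

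A further list held ligands that act on T cells and death receptors with their ligands. In it, 5 of 9 genes that reached 0.5 FPKM were at least 2-fold higher, against 2.19% of all genes counted. Of the 9, 2 reached 0.5 FPKM with IFNβ only, Tnfsf10 and Cd274. Tnfsf10, which encodes the death ligand TRAIL, had 3.22 FPKM with IFNβ and 0.0910 FPKM in control cells (effect 4.12). Cd274, which encodes the checkpoint ligand PD-L1, had 2.57 FPKM with IFNβ against 0.252 FPKM in control cells (effect 2.92), and Lgals9 had 80.8 FPKM with IFNβ and 24.3 FPKM in control cells. Lgals3bp had 67.0 FPKM with IFNβ against 17.7 FPKM in control cells. The death receptor Fas had 1.64 FPKM with IFNβ against 0.549 FPKM in control cells (effect 1.43). Of 18 cell death effectors, Casp4 and Casp12, inflammatory caspases, and Mlkl, the effector of necroptosis, passed 2-fold, against 2.19% of all genes counted. Of the 18, 2 reached 0.5 FPKM with IFNβ only, and so are in the count only because they were higher. They were Casp12 (1.49 FPKM with IFNβ, 0.385 FPKM in control cells) and Casp1 (0.879 FPKM with IFNβ, 0.484 FPKM in control cells). Mlkl had 43.2 FPKM with IFNβ and 21.1 FPKM in control cells, while its activating kinase Ripk3 had 9.91 FPKM with IFNβ against 10.3 FPKM in control cells.

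Lists for other pathways held few genes past 2-fold, as did all genes together (2.19% higher), so these counts are no result about the pathways. None of 14 NF-κB targets was at least 2-fold higher (median effect 0.05), and Nfkbia had 18.0 FPKM with IFNβ and 16.2 FPKM in control cells. Of 21 p53 targets only Fas passed 2-fold, with Cdkn1a, an inhibitor of cyclin-dependent kinases, just under it at 22.2 FPKM with IFNβ against 11.5 FPKM in control cells (effect 0.94). Of 26 immediate early and serum response genes only Cyr61 did, a matrix protein gene that responds to serum, at 11.2 FPKM with IFNβ and 3.65 FPKM in control cells (effect 1.59). Csrnp1, Ctgf and Atf3 followed with effects of 0.90, 0.84 and 0.67. Because the handling of control cells at the wash and their seeding density are not stated, the parts of a medium change and of cell density in these values cannot be told apart. No member passed 2-fold in either direction among 28 mitosis genes, 30 DNA replication genes, 38 splicing factors, 24 ER stress genes, 11 heat shock genes, 12 NRF2 targets, 15 hypoxia genes or 19 sterol genes.

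Highly expressed housekeeping genes had small positive effects. All 71 cytosolic ribosomal proteins had an effect above 0, from 0.00 to 0.28 with a median of 0.18, and 67 of the 71 were above 0 (median 0.10) when both groups were scaled to one sum. The constitutive proteasome had a median of 0.15 (0.07 with that scaling), respiratory chain subunits 0.12 (0.05) and ribosome biogenesis factors 0.10 (0.02). All FPKM together summed to 214728.5 with IFNβ and 203650.1 in control cells, a log2 ratio of 0.08. With both groups scaled to one sum the control genes had a median of -0.04. Effects also followed the level of a gene, with a median of -0.10 for genes of 0.5 to 1 FPKM and 0.11 for the 299 genes of 100 FPKM or more. The part of this trend in the ribosomal protein values was not tested. In FPKM alone, Eef1a1, a translation factor, was furthest above control cells, at 2783 FPKM with IFNβ against 2559.6 FPKM in control cells (effect 0.12), ahead of Bst2. Gapdh had 1578 FPKM with IFNβ and 1572 FPKM in control cells, and none of 15 control genes passed 2-fold (effects from -0.28 to 0.17).

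**Figure D4:**
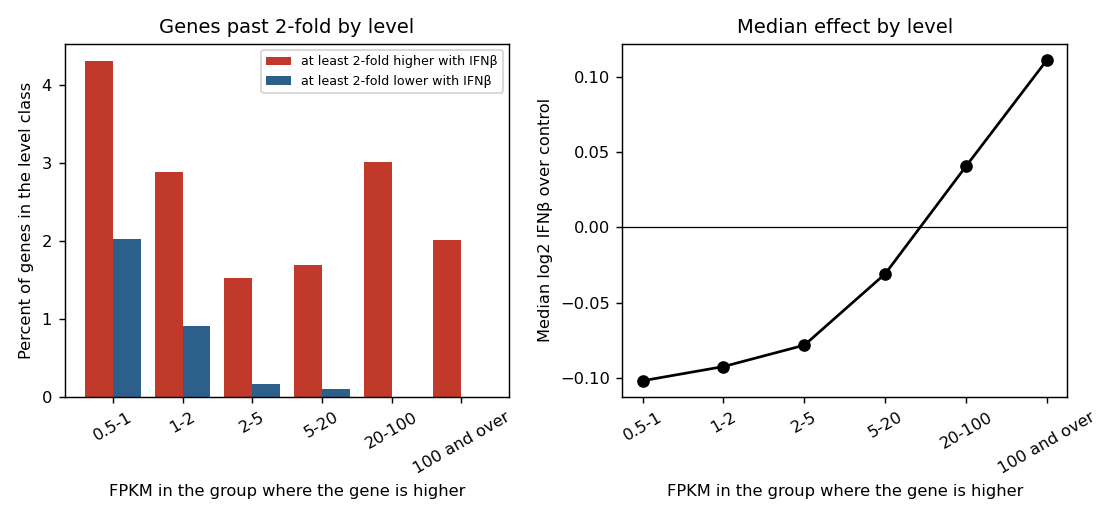
Left, percent of genes at least 2-fold higher (red) and at least 2-fold lower (blue) with IFNβ in 6 classes of level, set by the group where the gene is higher. Right, median effect (log2) of the genes in each class. The share higher is between 1.52% and 4.30% in every class, the share lower is 2.03% at 0.5 to 1 FPKM and 0 from 20 FPKM on, and the median effect runs from -0.10 to 0.11.

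The genes lower with IFNβ were nearly all loci of small RNAs. Of the 34, 33 carry microRNA or small nucleolar or Cajal body RNA names, and 27 of these lie within the span of another gene in the table. Their median span was 72 bases, and 16 of them were under 1 FPKM in both groups. Loci with such names passed 2-fold in 14.3% of 378 cases, 21 higher and 33 lower, against 2.08% of all other genes. The libraries were made from polyadenylated RNA, so reads in these spans cannot be told apart from reads of the host transcript. Of the 21 that were higher, 3 lay in a gene that was itself at least 2-fold higher, such as Mir7072 within Nlrc5. Of the 33 that were lower, 0 lay in a gene that was itself at least 2-fold lower. Slc26a11 was the only other gene at least 2-fold lower.

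With predicted and small RNA names passed over, and with control levels of 1 FPKM or more, the lowest effects were modest. After Slc26a11 came Zc3hav1l at 1.47 FPKM with IFNβ against 2.72 FPKM in control cells (effect -0.84), Sat2, a relative of the polyamine acetyltransferase Sat1 (0.962 FPKM with IFNβ, 1.73 FPKM in control cells), and Sgsh, the lysosomal sulfamidase (2.02 FPKM with IFNβ, 3.47 FPKM in control cells, effect -0.75). Of the genes under 1 FPKM in both groups, Slc25a42 (0.319 FPKM with IFNβ, 0.719 FPKM in control cells, effect -0.97) and Npff (0.369 FPKM with IFNβ, 0.806 FPKM in control cells, effect -0.95) came closest to 2-fold lower. Sgsh (chr11:119204802-119216824, mm9) and Slc26a11 (chr11:119216870-119242390, mm9) are neighbours with 45 bases between them. The largest differences below control cells in FPKM included Eef2 (469 FPKM with IFNβ, 505 FPKM in control cells), Scd2, a fatty acid desaturase (73.3 FPKM with IFNβ, 104.8 FPKM in control cells, effect -0.51), and Nedd4, a ubiquitin ligase (45.8 FPKM with IFNβ, 67.5 FPKM in control cells, effect -0.56).

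Of the 234 genes at least 2-fold higher, 131 were in one of the 47 lists and 103 were not, and 21 of these 103 were small RNA names. Some that stood out, chosen after their values were seen, are named here. Tor3a, an ATPase of the ER, had 34.0 FPKM with IFNβ and 2.00 FPKM in control cells (effect 4.02). Apol9a, an apolipoprotein L gene with the close copy Apol9b, had 20.5 FPKM with IFNβ against 2.27 FPKM in control cells. Batf2, a transcription factor, had 2.56 FPKM with IFNβ and 0.0444 FPKM in control cells. Ly6a, the surface protein Sca-1, had 69.5 FPKM with IFNβ against 20.1 FPKM in control cells (effect 1.79), and Ogfr, the opioid growth factor receptor, had 49.4 FPKM with IFNβ and 21.8 FPKM in control cells (effect 1.17). Just inside the threshold stood Usp25 at 29.6 FPKM with IFNβ against 14.7 FPKM in control cells (effect 1.01), and just outside it Shisa5 at 35.4 FPKM with IFNβ and 17.7 FPKM in control cells (effect 0.99).

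Markers of the cell line were alike in both groups. Vim, an intermediate filament of mesenchymal cells, had 835 FPKM with IFNβ against 785 FPKM in control cells, Krt8 had 75.3 FPKM with IFNβ and 70.2 FPKM in control cells, and Erbb2 had 3.87 FPKM with IFNβ against 4.71 FPKM in control cells. The epithelial markers Epcam, Cdh1, Krt18 and Krt19 were under 0.05 FPKM in both groups. Of 18 leukocyte markers only Lyz2 reached 0.5 FPKM (1.45 FPKM with IFNβ, 1.30 FPKM in control cells), and Ptprc, found on all leukocytes, was at 0.00295 FPKM with IFNβ and 0.000897 FPKM in control cells. In cells given 4.2 μM 4HC for 4 hours and collected at 72 hours, set against the same controls, Ifi47 had 3.54 FPKM, Usp18 47.4 FPKM, Isg15 118 FPKM and Ccl2 71.5 FPKM. With 10 μg/mL of the receptor antibody added to 4HC, these genes had 0.450, 3.03, 19.4 and 63.6 FPKM.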

How the data were processed

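RNA-seq libraries were made from polyadenylated RNA. The submitters' processing notes name TopHat2, the mouse build mm9, featureCounts and edgeR, all without versions. The authors deposited group mean FPKM for 4 groups of 3 libraries, and the depth of each library is not part of that table. Its columns of ratios, fold changes and p-values hold the authors' own comparisons and were not used. Effects, counts, list summaries, neighbours and motif matches were computed here in Python 3.11.15 with pandas 2.3.3 and numpy 2.4.6, and counting was tested on simulated means. Of 24197 rows, 23015 matched GENCODE symbols, 1063 matched RefSeq symbols or synonyms, 119 matched neither, and 27 names were dates. Of 811 genes in the lists, 804 were found, and some genes are not reported here. The lists, rules and named genes were chosen with earlier results of these data known. Genes named were the 20 highest and 10 lowest effects among genes of at least 1 FPKM in the higher group and above 0 in the other, the 10 largest rises and 5 largest falls in FPKM, list members past 2-fold, the 3 most abundant members of each list, and genes measured by qPCR in the study. Predicted and small RNA names and dates were passed over in the rankings. Genes named besides these were chosen after their values were seen. Alternatives changed the added FPKM, minimum, scaling, threshold and symbols counted.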

Additional observations from a re-analysis of the deposited data

How the results depend on the processing

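No paired analysis was possible because the table holds group means and no values per library. For the same reason leaving out each replicate was not run, and no result has a spread. The counts of 234 genes higher and 34 lower depend on where the threshold stands: at 1.5-fold they were 372 and 132, and at 4-fold 130 and 11. The higher count was within 1.5 times of 234 under each other alternative, between 159 with 1 FPKM added and 307 with no minimum. The lower count was 6 with 1 FPKM added, 94 with no minimum, 18 with a minimum of 1 FPKM, and 2 (Slc26a11 and the small RNA Scarna10) without symbols that start with Gm, LOC, Mir or Snor or end in Rik. Scaling both groups to one sum gave 216 higher and 43 lower, and centring on the median gene gave 243 and 33. The number of members at least 2-fold higher in a list moved by over 1.5 times in 18 of 423 combinations of list and setting, and in 15 of these the threshold itself had been changed. With 1 FPKM added, 78 of 152 named genes changed by over 1.5 times or crossed 2-fold, Usp18 had the highest effect (5.70), and 15 of the 20 highest genes were shared. With 0.01 FPKM added, 14 were shared. None of the alternatives could reverse the sign of an effect past 2-fold, so the absence of such changes among named genes is no test. The ISRE core followed by C was found in 0.819% of promoters, against 3.44% for the core.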
